A study of Homo sapiens with 16 samples.

Results

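The SLC30A10 experiment set 4 RNA libraries of HAP1 cells with a deletion of SLC30A10 against the 4 libraries of its own control set, 8 of the 16 libraries of the series. HAP1 is a near-haploid human cell line that grows attached and derives from a chronic myeloid leukaemia line. The libraries were chosen by the genotype and title in the labels, where the knockout is SLC30A10_delta and its control is SLC30A10+/+. A further 4 libraries, the control set of a second knockout made in the same line, served as a second control set, and the second knockout itself entered the fit but is not described. All cells were grown in IMDM with fetal bovine serum, penicillin and streptomycin, with no treatment named. A single line identifier is given for both control sets, and another for the knockout. How the deletion was made, how many clones it stands for and whether the 4 libraries of a group came from separate cultures are not given in the sources used here. P-values therefore measure the spread between these libraries, and deletion and clone cannot be told apart.

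SLC30A10 belongs to a family of transporters named for zinc, but its protein carries manganese out of the cell, and people who lack it accumulate manganese in liver and brain. Manganese is a cofactor of Golgi glycosyltransferases and of mitochondrial superoxide dismutase, and in excess it is toxic to neurons and to mitochondria. By its title, the study links metal toxicity to the mitochondrial RNA granule, a body in mitochondria where new RNA is processed.

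Gene levels are in CPM, which divides counts by a scaled library size so that libraries can be compared, and each fold change is a log2 difference with its SE from a fit over all genes. A gene was called when its adjusted p from edgeR's quasi-likelihood test, corrected by the Benjamini-Hochberg method over 15569 tested genes, was under 0.05. Library totals lay between 16058856 and 16648151 counts, so 3 counts, the limit used as a floor, equalled 0.181 to 0.187 CPM. Markers of blood cells were near 0, since 8 of 9 had at most 3 counts in every library, and the 9 together summed to at most 0.61 CPM. The summed level of the attached-cell markers VIM, CDH2 and FN1 was 484 to 491 CPM in the knockout, 870 to 926 in its control and 579 to 742 in the second control set. The 4 epithelial markers summed to 56.7 to 64.1 CPM in the knockout, 47.8 to 55.5 in its control and 46.6 to 51.5 in the second control set. Nearly all of that was keratin RNA, and the other 2 markers lay at or below 1.58 CPM in every library, one of them at a mean of 0.263 CPM in the knockout and 1.22 in its control. For the neural markers SOX2, PAX6 and TUBB3 the sums were 2256 to 2414 CPM, 2261 to 3136 CPM and 2986 to 3482 CPM. Marker sums thus moved with the groups, and their part in the results was not tested. In bulk RNA, fewer cells of a type and less RNA per cell cannot be told apart.

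Across the 12 libraries of the knockout and both control sets, the first principal component of log2 CPM held 52.2% of the variance. It placed the knockout between -31.9 and -30.4 and all 8 control libraries between 14.5 and 16.4. The second component held 22.5% and separated the control sets from each other, at 9.60 to 27.9 and -20.3 to -13.8. Control library 3 stood apart from the other libraries of its set on that component.

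**Figure D1:**
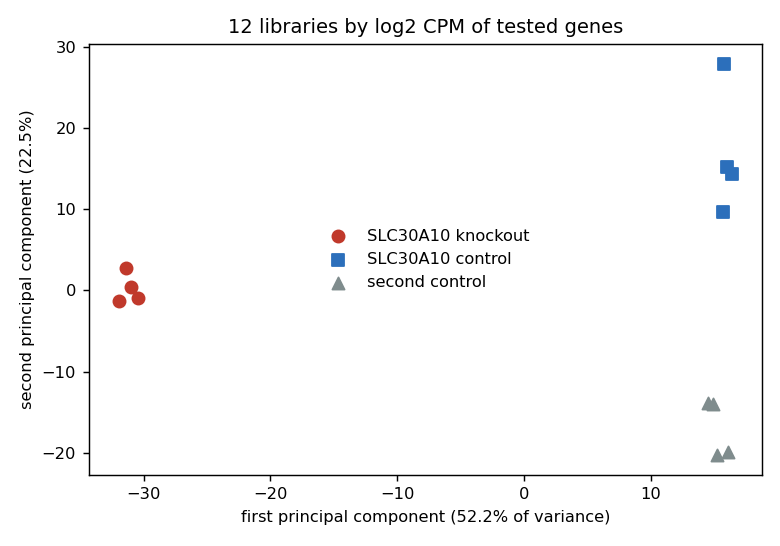
First 2 principal components of log2 CPM over the tested genes, 1 point per library for the SLC30A10 knockout, its control set and the second control set. The knockout lies on the far left of the first component (-31.9 to -30.4) and both control sets on the right (14.5 to 16.4), while the second component separates the control sets.

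The deleted gene gave no check of the labels, because its RNA was near the limit of detection. Counts of SLC30A10 were 3 to 11 in the knockout and 6 to 9 in the control libraries, and 2 to 7 in the second control set. The log2 ratio of knockout to control was -0.18 (two-sided exact permutation p = 0.686, n = 4 and 4, smallest possible 0.0286), so a decrease was not detectable at this depth. Without knockout library 4 the ratio changed sign, to 0.068.

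Of the tested genes, 6450 (41.4%) were called in the knockout against its control, 3301 higher (21.2%) and 3149 lower (20.2%), and the median log2 difference over all tested genes was -0.0048. The control sets differed from each other at 6111 genes (39.3%), so a call in the knockout was read against this background. Of the 6450 called genes, 3120 (48.4%) were also called between the control sets. In 2608 of these the knockout and the second control set lay on the same side of the SLC30A10 control set, and in 512 the 3 groups were ordered with the SLC30A10 control set in the middle. Both contrasts use the same 4 SLC30A10 control libraries, so these counts carry no test. Among the 2608, the knockout differed from the second control set in the same direction in 549, differed in the other direction in 293 and was not called against it in 1766. In 1185 called genes the difference between the control sets was opposite in direction and at least as large as that of the knockout.

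The knockout stood outside the spread of all 8 control libraries, above every one or below every one, in 3019 called genes, 19.4% of those tested. These were 1515 higher (9.73%) and 1504 lower (9.66%). The share depended on the size of the change. It was 34.2% of the 3207 called genes that changed by less than 1.25-fold, 52.8% of the 1618 between 1.25-fold and 1.5-fold and 57.0% of the 923 from there to 2-fold. From 2-fold to 4-fold it was 72.9% of 531 genes, and at 4-fold or more 91.2% of 171. Of the 702 genes that changed at least 2-fold (4.51% of those tested), 291 were also called between the control sets, 230 of them in the opposite direction and 61 in the same direction.

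The gene groups below are lists of pathways and families. For each, 3 medians of the log2 difference over its tested members are given in a fixed order, which is knockout minus its control, SLC30A10 control minus second control, and knockout minus second control. Over all tested genes these 3 medians were -0.0048, -0.0061 and -0.0043. In the knockout against its control 41.4% of all tested genes were called, 21.2% higher and 20.2% lower. The counts of each list are to be read beside these shares.

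**Figure D2:**
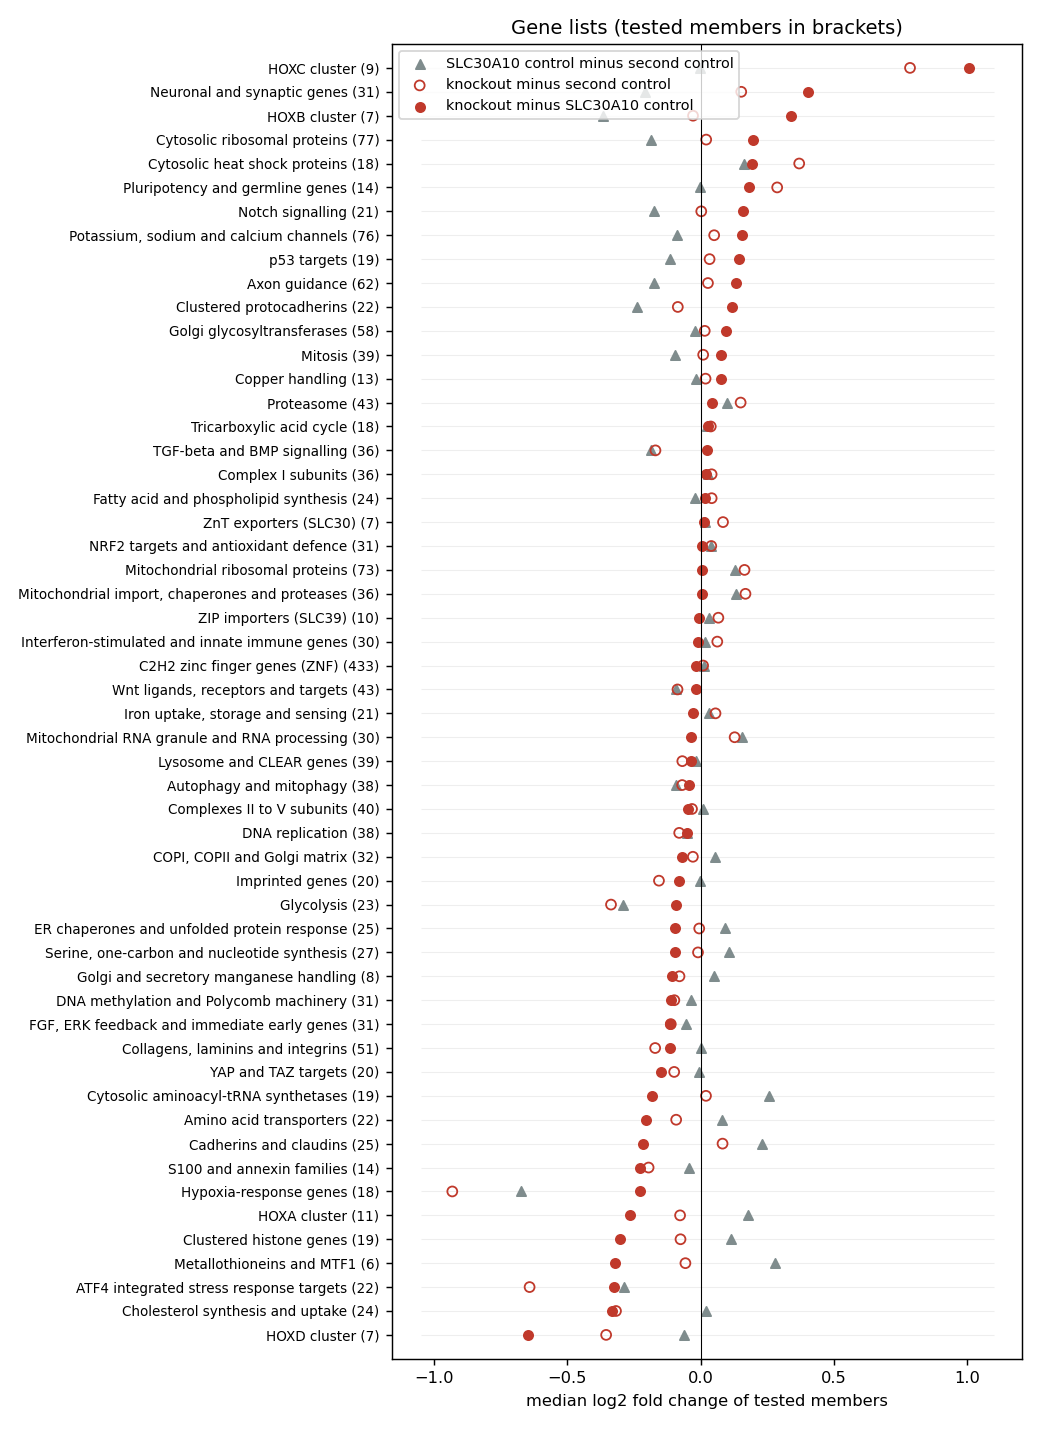
Median log2 fold change of the tested members of each gene list, with the number of tested members in brackets. Filled circles show the knockout against its control, open circles the knockout against the second control set, and triangles the SLC30A10 control against the second control set; cholesterol genes and the HOXC cluster lie on the same side against both control sets (medians -0.33 and -0.32, and 1.01 and 0.79), while ribosomal protein genes lie at 0.20 and 0.02.

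Genes of cholesterol synthesis and uptake were lower in the knockout. Of 24 tested members 2 rose and 20 fell, and 17 of the 22 called members lay outside all 8 control libraries. The 3 medians were -0.33, 0.022 and -0.32. Against the second control set 3 were higher and 18 lower. The control sets differed from each other in both directions, with 6 members higher and 6 lower in the SLC30A10 control, and 10 of the 22 called members were also called there, 6 of them in the opposite direction. The summed level was 3925 ± 44.2 CPM in the knockout (SD, n = 4), 4443 ± 63.8 in its control and 4494 ± 262 in the second control set. Both members that rose lie in chromosome stretches whose genes rose together, described at the end. Outside those stretches 0 of 20 members rose and 19 fell. Cells make cholesterol from acetyl-CoA through mevalonate, squalene and lanosterol, and the transcription factor SREBF2 raises the genes of the whole route when membrane sterol is low.

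Falls were spread along the route. HMGCS1, the first enzyme committed to mevalonate, held 331, 348, 319.8 and 331 CPM in the 4 knockout libraries and 562, 503, 476 and 530.5 in the 4 control libraries. All knockout values were below all control values, and it fell by 0.64 ± 0.077 on the log2 scale (SE, edgeR adjusted p = 1.91e-07). LSS, which closes squalene into lanosterol, fell from 157 ± 1.91 to 112 ± 1.12 CPM, a log2 change of -0.49 ± 0.039, and stood at 157 ± 6.89 CPM in the second control set. CYP51A1, the lanosterol demethylase, held 122, 129.6, 121 and 126 CPM in the knockout against 186, 173, 194 and 174 in the control. Its groups did not overlap, and the log2 change was -0.54 ± 0.047. FDPS, which makes farnesyl diphosphate, fell by 0.35 ± 0.04. The largest fall was that of MVD, mevalonate diphosphate decarboxylase, from 90.8 ± 5.22 to 42.1 ± 1.42 CPM, but MVD lies at the end of chromosome 16, where most genes fell. FDFT1, squalene synthase, rose by 0.84 and lies on chromosome 8p, and EBP, a sterol isomerase, rose by 0.35 and lies on the X chromosome. SREBF2 itself fell by 0.20. HMGCS1 and SREBF2 were chosen after their values were seen.

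**Figure D3:**
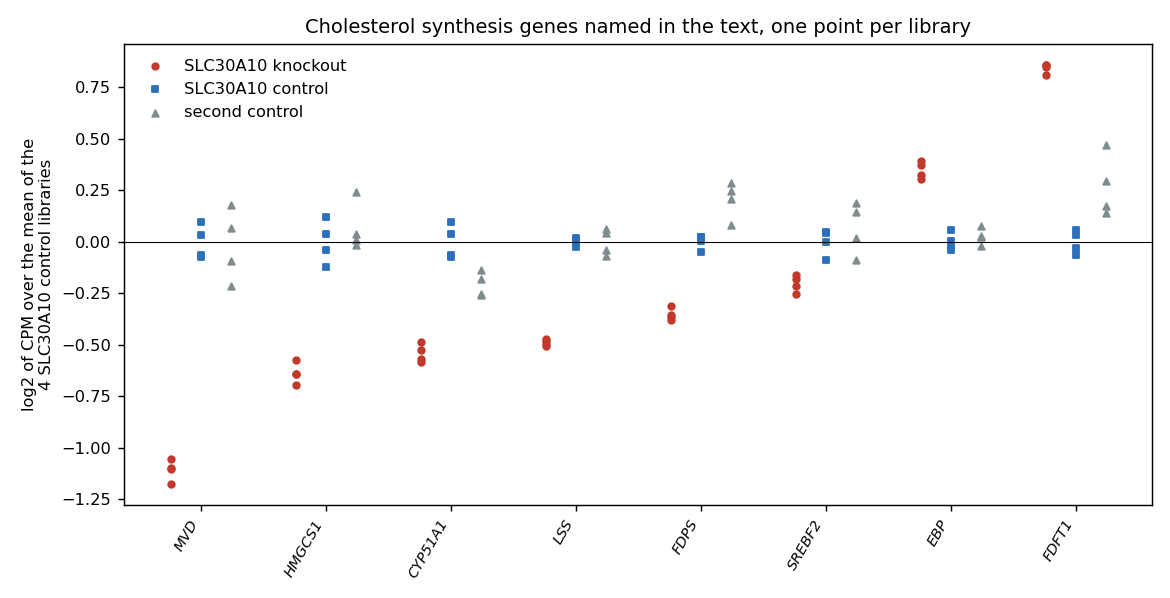
The 8 genes of cholesterol synthesis named above, ordered by fold change, with 1 point per library as log2 of its CPM over the mean of the 4 SLC30A10 control libraries. Most knockout points lie below both control sets, while FDFT1 (chromosome 8p) and EBP (X) lie above them.

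The promoters of these genes were read for the sterol regulatory element TCACNCCAC, on both strands, in the 250 bases before the gene start. A match was found in 1 of 18 members with a promoter in the reference, SREBF2, and in 0.802% of all 10355 tested genes with one. Exact letters of a single motif miss many sites, so the count describes only these letters in this window.

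Fatty acid and phospholipid genes did not move as a block. Among 24 tested members 9 rose and 8 fell, with medians of 0.017, -0.02 and 0.041. FASN, fatty acid synthase, fell by 0.27 ± 0.041 from 1294 ± 47.8 CPM, SREBF1, the transcription factor of this route, fell by 0.30 ± 0.044, and the desaturases FADS2 and FADS1 fell by 0.30 and 0.19. Rises were seen for the desaturase genes SCD5, from 18.6 ± 1.68 to 32.4 ± 0.968 CPM, and FADS3 (0.45), and for the acyl-CoA synthetases ACSL3 (0.31) and ACSL4 (0.34, on X). All 8 of these genes lay outside the 8 control libraries.

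Ribosomal protein genes were higher than in the control set of the experiment and level with the second control set. Of 77 tested members 63 rose and 2 fell, with medians of 0.20, -0.19 and 0.021. Their summed level was 54418 ± 1354 CPM in the knockout (SD, n = 4), 47393 ± 1135 in its control and 54499 ± 2916 in the second control set. The knockout thus exceeded its own control and lay within 1 SD of the second control set. Of the 65 called members, 54 were also called between the control sets, 52 of them in the opposite direction, and 11 lay outside all 8 control libraries. RPS23, a protein of the small subunit, was among these, at 1049.6 to 1079 CPM in the knockout, 776 to 797 in its control and 917 to 992 in the second control set. RPS24 rose by 0.31 against its control and by 0.17 against the second set. RPS4X rose by 0.63 and lies on X. Ribosomal proteins have many near-identical pseudogenes, so reads can be shared and these levels are uncertain.

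The genes that load amino acids onto tRNA in the cytosol showed the mirror image. None rose, 10 of 19 fell, and 9 of the 10 were called between the control sets in the opposite direction. Medians were -0.18, 0.25 and 0.02. The summed level was 4168 ± 52.7 CPM in the knockout, 4902 ± 133 in its control and 4155 ± 117 in the second control set (SD, n = 4). TARS, the threonyl-tRNA synthetase, held 263, 269.8, 252 and 269 CPM in the knockout, 375, 371, 412 and 359 in its control and 294, 285, 293 and 273 in the second control set. Its control stood above both other groups. AARS, the alanyl-tRNA synthetase, fell by 0.59 against its control and differed by -0.37 from the second set. The corresponding values were -0.40 and -0.15 for EPRS.

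ATF4 is the transcription factor of the integrated stress response, which cells raise when amino acids run short. The median of its target list was lower in the knockout, and lower still against the second control set. The genes named here differed less from the second control set than from their control. The summed level was 1744 ± 24.6 CPM in the knockout, 2306 ± 58.1 in its control and 2400 ± 303 in the second control set (SD, n = 4). Of 22 tested members none rose and 8 fell, or 36.4%, where 41.4% of all tested genes were called, 20.2% lower. The medians were -0.33, -0.29 and -0.64. ATF4 held 357, 366, 347 and 348 CPM in the knockout, 542, 547, 582 and 559 in its control and 529, 532, 509 and 433 in the second control set. Every knockout library lay below all 8 control libraries, and it fell by 0.65 ± 0.088 (edgeR adjusted p = 1.01e-06). ASNS, asparagine synthetase, fell from 178 ± 8.61 to 99.9 ± 4.42 CPM and stood at 147 ± 32.5 in the second control set. PSAT1 and PHGDH, enzymes of serine synthesis, fell by 0.52 and 0.42, while their differences from the second control set, -0.23 and -0.12, were not called. In this list 14 of 22 members were not called, and in a fit of only the 8 libraries compared 14 were called.

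Amino acid transporters moved both ways, 5 up and 7 down of 22, with medians of -0.21, 0.078 and -0.092. SLC3A2 and SLC7A5 encode both chains of the large neutral amino acid transporter. SLC3A2 held 125, 110.1, 116 and 124 CPM in the knockout and 177, 197, 199 and 183 in the control. The groups did not overlap, and it fell by 0.67 ± 0.10. SLC7A5 fell by 1.14, from 464 ± 37.4 CPM, and lies in the chromosome 16 stretch whose genes fell. SLC38A2, a carrier of small neutral amino acids, fell by 0.34 and differed by -0.64 from the second control set. Of the rises, SLC7A2 (1.13), a carrier of basic amino acids, lies on 8p, and SLC36A4 (0.51) does not lie in any of the 3 stretches. In the list of serine, one-carbon and nucleotide synthesis 4 of 27 rose and 13 fell, with medians of -0.10, 0.11 and -0.01. PSPH, the last enzyme of serine synthesis, fell by 0.34 and lay below all 8 control libraries, whereas the purine enzymes PFAS (-0.27) and ATIC (-0.21) were at the level of the second control set (0.024 and -0.062). IMPDH1 and IMPDH2, which commit purines to guanine nucleotides, rose by 0.17 and 0.15.

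Cytosolic heat shock proteins, which fold and protect other proteins, were higher in the knockout. Of 18 tested members 10 rose and 2 fell, and the medians were 0.19, 0.16 and 0.37. The SLC30A10 control was itself higher than the second control set in 12 members and lower in 0. Of the 12 called in the knockout, 8 were also called between the control sets, 6 of them in the same direction. Outside all 8 control libraries lay 8 of the 12. HSP90AA1 held 5007, 4918, 4821 and 4989.6 CPM in the knockout, 3883, 3851, 4126 and 3695 in its control and 3865, 3562, 3428 and 3663 in the second control set. All 4 knockout libraries exceeded all 8 control libraries, and the rise was 0.34 ± 0.038 (edgeR adjusted p = 4.60e-08). The partners of HSP90 rose as well, FKBP4 by 0.33 and AHSA1 by 0.34, as did the small heat shock protein HSPB1 by 0.31, and these 3 also lay above all 8 control libraries. Summed over the list, the level was 16484 ± 196 CPM in the knockout, 13980.0 ± 919.6 in its control and 12442 ± 339 in the second control set (SD, n = 4). A heat shock element GAANNTTC was found, on both strands, in 5 of the 16 members with a promoter, against 3.89% of all tested genes with one. Of these 5, 2 rose and 3 were not called.

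Among folding genes of the endoplasmic reticulum 3 of 25 rose and 10 fell, with medians of -0.095, 0.091 and -0.0055, and 8 of the 13 called members were called between the control sets in the opposite direction. Of the 13 calls, 7 remained in number without control library 3, 6 without knockout library 1 and 8 without knockout library 3. EIF2AK3, the kinase PERK, rose by 0.33. DNAJB9, a co-chaperone, fell by 0.34 and lay below all 8 control libraries. Of 43 proteasome genes 10 rose and 1 fell, which is 25.6% called against 41.4% of all tested genes. The medians were 0.042, 0.10 and 0.15. The largest of these rises was PSMD10 at 0.48, on X, while PSMA1, a subunit of the core, rose by 0.17. The proteasome count rested on single libraries, since 2 members were called without control library 2, 17 without control library 3, 6 without control library 1 or knockout library 4, 5 without control library 4 and 7 without knockout library 1.

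**Figure D4:**
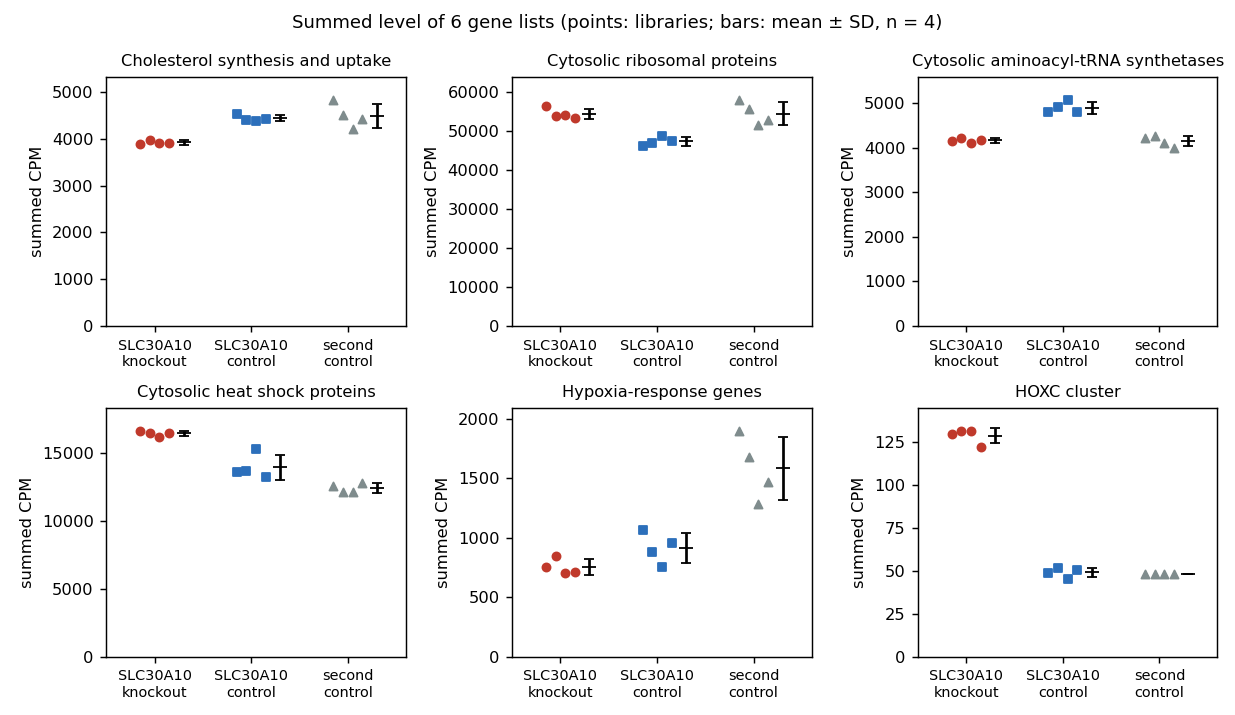
Summed CPM of 6 gene lists, with 1 point per library and the mean ± SD (n = 4) beside each group. The knockout stands apart from both control sets for cholesterol, heat shock and HOXC genes; for ribosomal protein and tRNA synthetase genes it lies near the second control set and the SLC30A10 control set stands apart.

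Genes of the hypoxia response differed more between the control sets than between knockout and control. Of 18 tested members none rose and 5 fell, or 27.8%, where 41.4% of all tested genes were called, 20.2% lower. The medians were -0.23, -0.67 and -0.93. A fit of only the 8 libraries compared called 9 members in place of 5. The 3 groups were ordered, with summed levels of 753 ± 64.7 CPM in the knockout, 914 ± 128 in its control and 1583 ± 268 in the second control set (SD, n = 4). EGLN3, a prolyl hydroxylase that marks HIF for degradation and is itself raised by HIF, held 24.98, 26.5, 20.8 and 21.6 CPM in the knockout and 54.6, 45.95, 43.2 and 46.6 in the control. The groups did not overlap, and it fell by 1.02 ± 0.13. P4HA1, a collagen prolyl hydroxylase, fell by 0.79 and was itself lower in the SLC30A10 control than in the second control set, by a log2 difference of -0.67. For DDIT4, an inhibitor of mTOR, the values were -0.69 and -1.80. Glycolysis genes followed in part: of 23, 3 rose and 9 fell, with medians of -0.091, -0.29 and -0.34. PFKFB3, which makes the activator of phosphofructokinase, fell from 107 ± 12.6 to 66.8 ± 5.24 CPM, the glucose transporter SLC2A1 fell by 0.37, and hexokinase HK2 fell by 0.26. PKM, pyruvate kinase, rose by 0.38, at 3713 to 3857 CPM in the knockout and 2823 to 3026 in its control, but it overlapped the second control set, at 2992 to 3783.

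Nuclear genes for mitochondrial proteins were called in the knockout at a share near or under that of all tested genes, 41.4%. Of 36 complex I subunits 8 rose and 8 fell, of 40 subunits of complexes II to V 2 rose and 6 fell, and of 73 mitochondrial ribosomal proteins 12 rose and 8 fell. These are 44.4%, 20% and 27.4% of the members. Medians were 0.02, 0.027 and 0.041 for complex I, -0.046, 0.0071 and -0.033 for complexes II to V and 0.0047, 0.13 and 0.16 for the ribosomal proteins. Against the second control set 43 of the mitochondrial ribosomal proteins were higher and 4 lower, and between the control sets 34 were higher and 3 lower. NDUFS1, the largest subunit of complex I, held 115, 118, 113 and 116 CPM in the knockout and 149.6, 149, 147 and 146 in the control. Its groups did not overlap, and it fell by 0.36 ± 0.044. NDUFA5, an accessory subunit, rose from 88.3 ± 5.09 to 179 ± 4.47 CPM, a log2 change of 1.02 ± 0.045, and stood at 88.9 ± 3.81 in the second control set. COX7A2L, a factor of supercomplexes, fell by 0.26. MRPL39 fell by 0.24 and MRPL12 rose by 0.25. In the list of the RNA granule and RNA processing 2 of 30 rose and 4 fell, with medians of -0.036, 0.16 and 0.13, and against the second control set 15 were higher and 1 lower. The largest of these 4 falls, that of FASTKD2 (-8.40), is described below with the losses. LRPPRC, which stabilises mitochondrial mRNA, rose by 0.18 and lay above all 8 control libraries, whereas FASTKD5 differed by -0.50 from its control and by 0.04 from the second control set.

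Among 36 genes of import and quality control of mitochondrial proteins 9 rose and 8 fell, which is 47.2% called against 41.4% of all tested genes. Medians were 0.004, 0.13 and 0.17, and 13 of the 17 were called between the control sets, 11 of them in the opposite direction. HSPD1, the matrix chaperonin, held 2473, 2520.4, 2403 and 2504 CPM in the knockout, 2040.5, 2070.5, 2145 and 1987 in its control and 2128, 2039, 2054 and 2149 in the second control set. It exceeded all control libraries, with a rise of 0.26 ± 0.034. The presequence protease PITRM1 rose by 0.42 and the matrix protease LONP1 fell by 0.32. In the tricarboxylic acid cycle 4 of 18 rose and 4 fell, with medians of 0.028, 0.024 and 0.038. IDH3A, the catalytic subunit of isocitrate dehydrogenase, rose by 0.43, and its partner IDH3G rose by 0.55 but lies on X. DLST and SUCLG2 fell by 0.27 and 0.20. Apart from FASTKD5, the mitochondrial genes named with a rise or fall here and above lay outside the 8 control libraries, unlike many called members. Those outside were 10 of 16 called complex I genes, 5 of 8 of complexes II to V and 12 of 20 mitochondrial ribosomal proteins. They were 4 of 6 for the RNA granule, 8 of 17 for import and quality control and 6 of 8 for the tricarboxylic acid cycle.

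Antioxidant genes, including targets of NRF2, gave 9 rises and 5 falls among 31, with medians of 0.0058, 0.039 and 0.04. NQO1, a quinone reductase and a much used marker of NRF2 activity, held 16.2, 15.97, 17.3 and 17.3 CPM in the knockout, 58.96, 56.4, 68.9 and 57.6 in its control and 30.96, 25.3, 25.01 and 26.9 in the second control set. It fell by 1.86 ± 0.10 and lay below all 8 control libraries, although the control sets also differed by 1.16. CAT, catalase, rose by 0.46, and GSR, glutathione reductase, rose by 0.24. GCLC, the first enzyme of glutathione synthesis, fell by 0.15.

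No tested SLC30 or SLC39 gene changed by 2-fold or more. Of 7 tested SLC30 exporters 2 rose and 2 fell, with medians of 0.013, 0.017 and 0.084. SLC30A1, which exports zinc at the cell surface, was lower than in its control (-0.34) and at the level of the second control set (0.15, not called). SLC30A9, a mitochondrial zinc transporter, held 138, 145, 131 and 136 CPM in the knockout and 158, 158, 152 and 151 in the control, and fell by 0.17 ± 0.039. SLC30A3 rose by 0.20, a call lost without knockout library 3 (0.15, edgeR adjusted p = 0.0724), and SLC30A4 differed by 0.37 from its control and -0.23 from the second set. SLC30A5, SLC30A6 and SLC30A7 were not called, at 0.04, -0.059 and 0.013. Of 10 tested SLC39 importers 2 rose and 0 fell, with medians of -0.0073, 0.032 and 0.066. Their list summed to 980 to 1003 CPM in the knockout, 834 to 904 in its control and 783 to 814 in the second control set. The sum includes SLC39A14. SLC39A6 rose by 0.19, above all 8 control libraries. SLC39A14, which can bring manganese into cells, rose by 0.64 and lies on 8p. SLC39A8, the other ZIP protein known to carry manganese, was not called (37.3 to 44.3 CPM in the knockout, 39.4 to 43.00 in the control).

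Genes of manganese handling in the Golgi and secretory route gave 0 rises and 3 falls among 8, with medians of -0.11, 0.049 and -0.08. ATP2C1, the Golgi pump for calcium and manganese, was not called, at 147 to 149.6 CPM in the knockout and 141 to 156 in the control. SLC10A7, which is needed for glycosylation and calcium balance, held 9.32, 10.4, 8.83 and 9.28 CPM in the knockout, 13.5, 12.2, 13.9 and 12.9 in its control and 13.2, 11.9, 13.3 and 12.3 in the second control set. It lay below all 8 control libraries and fell by 0.47 ± 0.094. SLC40A1, the iron exporter ferroportin, fell by 0.44, and TMEM165, a Golgi manganese importer, fell by 0.13 but differed by 0.0011 from the second control set. The call of TMEM165 was lost without knockout library 2 (-0.12, edgeR adjusted p = 0.0619) and without knockout library 3 (-0.12, 0.0526). ATP13A1, ATP2C2, SLC11A2 and SLC35A3 were not called. Among 21 iron genes 7 rose and 5 fell, and 8 of these 12 were opposite between the control sets. Medians were -0.027, 0.03 and 0.056 for iron genes and 0.076, -0.018 and 0.018 for copper genes. NCOA4, the receptor that delivers ferritin to autophagy, rose by 0.36, and FTH1, the ferritin heavy chain, fell by 0.24, both outside all 8 control libraries. Of the 12 called iron genes only 3 lay outside all 8. Those that did not include TFRC (-0.55), the transferrin receptor, PCBP1 (-0.17), FBXL5 (0.30), SLC25A28 (0.29) and IREB2 (0.15). Copper genes gave 3 rises and no falls among 13, or 23.1%, where 41.4% of all tested genes were called, 21.2% higher. Of the 3, COX11, a copper chaperone, lay above all 8 (0.18).

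Metallothioneins, small proteins that bind zinc, copper and cadmium, fell in part against the control set, while 0 of 6 were called lower against the second. Against its control none rose and 3 fell, with medians of -0.32, 0.28 and -0.057, and all 3 were opposite between the control sets. MT2A held 84.4, 77.9, 85.5 and 76.8 CPM in the knockout, 98.1, 105, 129 and 87.5 in its control and 77.2, 83.2, 79.9 and 79.9 in the second control set. It fell by 0.37 ± 0.079 against its control, and the difference from the second control set was 0.02. MT1X fell by 0.45 and differed from the second set by -0.10, and MT1E fell by 0.66 and differed by -0.17. Every knockout library was nonetheless below all 8 control libraries for MT1E, at 72.5 to 78.02 CPM against 102 to 146 and 81.5 to 91.5. MT1F, MT1M and the transcription factor MTF1, which binds metal response elements, were not called. These genes are close copies and may share reads. The 250 bases before the start of 2 of the genes that fell are shown (RefSeq, GRCh38.p14). The letters TGCACNC, a form of the core of the metal response element, recur in them on either strand. Only these exact letters were searched, so other forms of the core are neither marked nor counted. Capitals mark the matches, 5 in MT2A (chr16:56608334-56608583, plus strand) and 2 in MT1X (chr16:56682220-56682469, plus strand). At least 1 match was held by 9.54% of all tested genes with a promoter.
MT2A: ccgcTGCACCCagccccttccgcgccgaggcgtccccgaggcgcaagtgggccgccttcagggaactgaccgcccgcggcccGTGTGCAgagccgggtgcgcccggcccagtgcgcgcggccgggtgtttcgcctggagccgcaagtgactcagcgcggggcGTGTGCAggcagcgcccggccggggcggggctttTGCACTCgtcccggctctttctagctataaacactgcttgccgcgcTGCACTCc
MT1X: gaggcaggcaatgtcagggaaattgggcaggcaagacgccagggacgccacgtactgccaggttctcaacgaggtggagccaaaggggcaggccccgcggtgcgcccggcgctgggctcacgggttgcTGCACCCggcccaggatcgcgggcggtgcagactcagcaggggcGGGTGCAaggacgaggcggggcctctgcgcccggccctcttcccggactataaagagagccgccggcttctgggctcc

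Lysosomal genes split by chromosome. Of 39 tested members 9 rose and 16 fell, with medians of -0.036, -0.017 and -0.069, and outside the 3 chromosome stretches 1 of 31 rose and 16 fell. The largest rises, of acid ceramidase ASAH1 (1.06), cathepsin CTSB (1.05) and the proton pump subunit ATP6V1B2 (0.89), all lie on 8p. CTSC, a peptidase that activates other proteases, held 24.7, 25.7, 29.3 and 28.5 CPM in the knockout, 55.6, 60.6, 59.1 and 58.6 in its control and 49.7, 48.4, 46.6 and 49.2 in the second control set. The knockout lay below all 8, and CTSC fell by 1.11 ± 0.06. LAMP1, an abundant protein of the lysosomal membrane, fell from 175 ± 12.5 to 117 ± 4.72 CPM and stood at 142 ± 4.13 in the second control set. The hydrolase GUSB fell by 0.39. The letters TCACGTGA, the E-box bound by TFEB and its relatives, were found in 5 of 26 members with a promoter (ATP6V0D1, CTSA, GAA, LAMP1 and MCOLN1), of which 4 fell and 0 rose, and in 1.67% of all tested genes with one. Of 38 autophagy and mitophagy genes 4 rose and 9 fell, with medians of -0.045, -0.093 and -0.07. ATG7, an enzyme of autophagosome formation, fell by 0.35 and lay below all 8 control libraries, and GABARAPL1 rose by 0.47 to the level of the second control set (0.068).

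Golgi glycosyltransferases, many of which use manganese, gave 20 rises and 10 falls among 58, with medians of 0.095, -0.019 and 0.015. MGAT5B, which branches N-glycans and O-mannose glycans in brain, held 21.1, 19.4, 21.8 and 19.1 CPM in the knockout, 12.3, 11.8, 11.4 and 12.8 in its control and 14.7, 15.3, 16.6 and 15.3 in the second control set. It lay above all 8, with a rise of 0.75 ± 0.09. B4GALT6, the lactosylceramide synthase, rose by 0.51, and GALNT11 and GALNT16, which start O-glycans, rose by 0.38 and 0.85. GALNT2 and GALNT10 of the same family fell by 0.30 and 0.40, and FUT11 fell by 0.61. Every gene named here lay outside the 8 control libraries, as did 19 of the 30 called members of the list. Of the 30, 15 were also called between the control sets, 10 of them in the opposite direction. FUT9, which makes the Lewis x structure, fell to 0 counts and is described below. Among 32 coat and Golgi matrix genes 3 rose and 12 fell, with medians of -0.068, 0.053 and -0.029, and 9 of the 15 were opposite between the control sets. SEC24D, a cargo adaptor of COPII needed for collagen export, fell by 0.65 and lay below all 8.

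Of 39 mitotic genes 16 rose and 2 fell, with medians of 0.076, -0.10 and 0.0093, and 10 of the 18 called members were opposite between the control sets. NDC80, a kinetochore protein, held 233, 248, 226 and 236 CPM in the knockout, 148, 140.0, 123 and 148 in its control and 199, 197, 186 and 187 in the second control set. It rose by 0.75 ± 0.052 and lay above all 8. CDC25B and CENPA rose by 0.45 and 0.40 and also lay above all 8, but only 5 of the 18 called members lay outside all 8. The summed level of the mitotic list was 9324 ± 188 CPM in the knockout, 8819 ± 95.9 in its control and 9323 ± 384 in the second control set (SD, n = 4). Of 38 replication genes 2 rose and 13 fell, with medians of -0.05, -0.051 and -0.081. Of these 15, 10 were also called between the control sets, 8 of them in the opposite direction. The largest falls in that list, GINS2 (-0.64) and CDT1 (-0.38), lie in the chromosome 16 stretch, and the rise of POLA1 (0.41) lies on X. RPA1, which binds single-stranded DNA, fell by 0.17 and lies in none of them. Targets of p53 gave 6 rises and 1 fall among 19, which is 36.8% called against 41.4% of all tested genes. The medians were 0.14, -0.11 and 0.033, and 6 of the 7 were opposite between the control sets. GADD45A rose from 4.49 ± 0.426 to 7.88 ± 0.671 CPM and BTG2 by 0.44, both above all 8. CDKN1A, which stops the cell cycle, rose by 0.77 against its control, while its difference from the second control set was 0.21 and was not called. Among 19 clustered histone genes 2 rose and 5 fell, with medians of -0.30, 0.12 and -0.076, and 4 of these 7 calls were left in number without control library 1 or knockout library 3. Most of their mRNA has no poly-A tail and escapes poly-A selection.

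Regulators of chromatin fell more often than they rose. In the list of DNA methylation and Polycomb machinery 4 of 31 rose and 13 fell, with medians of -0.11, -0.037 and -0.10. Of the 17 called members 7 lay outside all 8 control libraries, those named here from this list among them. EZH2, the histone H3K27 methyltransferase, held 94.96, 107, 95.5 and 98.5 CPM in the knockout, 139, 135, 131 and 135 in its control and 127, 129, 125 and 116 in the second control set. Every knockout library lay below all 8 control libraries, and it fell by 0.45 ± 0.044. The DNA demethylases TET2 and TET3 fell by 0.34 and 0.27. RBBP4, a histone chaperone, rose by 0.13 and its relative RBBP7 by 0.34, the latter on X. Of 433 tested C2H2 zinc finger genes 67 rose and 85 fell, a share of called genes of 35.1% against 41.4% of all tested genes, with medians of -0.016, 0.013 and 0.009. Outside the 3 stretches, and at a mean of 5 CPM or more, ZNF518B had the smallest adjusted p among rises (0.66) and ZNF587B among falls (-0.70, against -0.10 from the second control set).

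Genes of extracellular matrix and adhesion changed strongly, and the control sets differed for many of them too. Of 51 collagens, laminins, integrins and matrix partners 11 rose and 22 fell, with medians of -0.12, 0 and -0.17. Of the 33 called, 18 lay outside all 8 control libraries, and 20 were opposite between the control sets. COL5A2, a chain of type V collagen, held 7.40, 7.58, 7.97 and 8.78 CPM in the knockout, 105, 102, 112 and 96.3 in its control and 45.9, 42.1, 37.1 and 38.3 in the second control set. The knockout was lowest and the second control set lay between, with log2 differences of -3.71 ± 0.12 against its control and -2.36 against the second set. LAMA2, a laminin chain, fell from 61.01 ± 1.44 to 18.5 ± 1.60 CPM with 25.01 ± 3.59 in the second control set. FN1, fibronectin, fell by 1.44 and differed from the second set by -0.59. SPARC, a matrix protein that binds collagen, fell by 1.15, but against the second control set its difference was -0.17, which was not called. COL6A1 rose by 0.45, COL27A1 by 0.33 and LAMC3 by 0.96, all above all 8.

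Among 25 cadherins and claudins 5 rose and 12 fell, with medians of -0.22, 0.23 and 0.082. CDH3, P-cadherin, held 2.05, 1.31, 1.59 and 1.31 CPM in the knockout, 10.4, 11.8, 8.96 and 13.1 in its control and 11.01, 14.1, 14.8 and 13.1 in the second control set. It fell by 2.82 ± 0.16, and the control sets did not differ by the test. PCDH7, PCDH20 and CDH2, N-cadherin, fell by 1.34, 1.59 and 0.78. CLDN1, a tight junction protein, rose from 4.58 ± 0.457 to 14.4 ± 0.606 CPM and stood at 2.76 ± 0.567 in the second control set. Targets of the mechanosensitive factors YAP and TAZ gave no rises and 9 falls among 20, or 45%. Of all tested genes 41.4% were called, 20.2% lower. The medians of the list were -0.15, -0.0065 and -0.10. CYR61, a secreted matrix protein raised by YAP, held 17.7, 17.2, 21.3 and 21.2 CPM in the knockout, 81.1, 73.9, 105 and 64.9 in its control and 38.6, 41.5, 35.4 and 34.6 in the second control set. The knockout lay below all 8 although the control sets differed by 1.11, and it fell by 2.07 ± 0.15. AMOTL2 and LATS2, which act back on the pathway, fell by 0.60 and 0.36. In the S100 and annexin families 1 of 14 rose and 6 fell, with medians of -0.23, -0.045 and -0.20. Among the falls were S100A11 (-1.14) and ANXA5 (-0.45), which lay below all 8, and ANXA2 (-0.67), whose difference from the second control set was -0.12. Clustered protocadherins gave 4 rises and 3 falls among 22, with medians of 0.12, -0.24 and -0.086, and reads may be shared among their alternative first exons.

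Signalling genes were described by ligand, receptor and feedback. In the Wnt list 12 of 43 rose and 8 fell, with medians of -0.018, -0.093 and -0.087. WNT5A, a ligand of the non-canonical branch, held 56.2, 57.05, 58.6 and 58.5 CPM in the knockout, 24.5, 23.98, 22.99 and 27.4 in its control and 38.97, 37.4, 39.1 and 38.2 in the second control set. It rose by 1.22 ± 0.058 and lay above all 8. FZD10, a receptor, rose from 3.67 ± 0.391 to 14.1 ± 1.63 CPM with 3.73 ± 0.439 in the second control set, and SFRP1, a secreted inhibitor, rose by 0.79. The receptors FZD1 and FZD6 fell by 0.38 and 0.37, and CTNNB1, beta-catenin, fell by 0.15. In TGF-beta and BMP signalling 7 of 36 rose and 7 fell, with medians of 0.022, -0.19 and -0.17, while against the second control set 5 were higher and 20 lower. The ligand subunit INHBB rose by 0.93, the receptor TGFBR2 by 0.40 and the inhibitor SMAD7 by 0.64, while the ligand BMP7 fell from 36.2 ± 2.34 to 18.1 ± 1.52 CPM. All of these lay outside the 8 control libraries.

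The list of FGF, ERK feedback and immediate early genes gave 4 rises and 13 falls among 31, with medians of -0.11, -0.055 and -0.11. JUN, an immediate early transcription factor, held 3.67, 3.79, 4.11 and 3.98 CPM in the knockout and 7.49, 9.23, 9.82 and 6.65 in the control. The groups did not overlap, and it fell by 1.09 ± 0.15. ETV1, a target of ERK, fell by 1.35, the feedback inhibitor SPRED2 by 0.28 and the ligand FGF9 by 0.80, whereas FOSL1 rose by 0.37. Notch genes gave 7 rises and 3 falls among 21, with medians of 0.16, -0.17 and 0.0022, and of the calls 6 were opposite between the control sets. HES1, a direct target, rose by 0.57 against its control and was lower than in the second control set (-0.74), so its direction depended on the control set. MFNG and LFNG, which modify the receptor, rose by 0.27 and 0.54, above all 8.

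Neuronal, axonal and channel genes rose more often than they fell against the control set, and their counts against the second control set are given beside each. Of 31 neuronal and synaptic genes 19 rose and 6 fell, with medians of 0.40, -0.21 and 0.15, and 19 lay outside all 8 control libraries. Against the second control set 12 were higher and 9 lower. The neural markers TUBB3 and SOX2 went the other way, TUBB3 from 214 ± 14.3 to 147 ± 6.61 CPM and SOX2 from 2535 ± 379.5 to 2177 ± 62.9. They stood at 225 ± 5.02 and 2987 ± 238 in the second control set (SD, n = 4). The remaining neural marker, PAX6, had a mean of 16.8 CPM in the knockout, 13.7 in its control and 14.9 in the second control set. The part of these markers in the counts was not tested. The call of SOX2 was lost without control library 4 (-0.15, edgeR adjusted p = 0.0866) and without knockout library 2 (-0.20, 0.0511). SYT11, a protein of vesicle trafficking, held 36.3, 35.2, 35.1 and 37.8 CPM in the knockout, 6.21, 5.16, 4.88 and 5.91 in its control and 4.10, 3.27, 3.50 and 3.77 in the second control set. It rose by 2.70 ± 0.08 and was higher than in every control library. NRXN2, an adhesion protein of the synapse, rose by 0.79 and the scaffold SHANK3 by 0.62. STXBP2, a protein of vesicle fusion outside neurons, fell from 12.98 ± 1.01 to 3.55 ± 0.428 CPM. Axon guidance genes gave 24 rises and 13 falls among 62, with medians of 0.13, -0.18 and 0.027, and 21 of the 37 were opposite between the control sets. Against the second set 17 were higher and 15 lower. SLIT3, a repellent ligand, rose by 2.27 against its control and differed by 0.47 from the second control set, and its receptor gene ROBO2 fell by 0.51. Of 76 channel genes 28 rose and 10 fell, with medians of 0.16, -0.087 and 0.051. Of the 18 that were also called between the control sets 15 were opposite, and against the second set 18 were higher and 17 lower. KCND2, a potassium channel of neurons, held 12.9, 12.2, 11.9 and 12.7 CPM in the knockout, 1.40, 1.40, 2.13 and 1.77 in its control and 0.551, 0.546, 0.362 and 0.668 in the second control set. It rose by 2.89 ± 0.13. KCNN3 and CACNA2D2 rose by 1.57 and 0.56, and SCN8A fell by 0.37. CACNG7 rose by 0.84 and SCN9A fell by 1.07, neither of them outside all 8 control libraries.

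The 4 HOX clusters, whose genes set position along the body axis, moved differently. In HOXC 7 of 9 rose and 1 fell, with medians of 1.01, -0.0038 and 0.79. HOXC10 held 53.3, 57.4, 53.04 and 48.9 CPM in the knockout, 6.82, 7.47, 6.28 and 8.11 in its control and 8.87, 8.73, 6.63 and 6.32 in the second control set. The rise was 2.89 ± 0.09 (edgeR adjusted p = 2.76e-19). HOXC11 and HOTAIR, a long non-coding RNA, rose from 0.639 ± 0.152 to 15.1 ± 1.22 CPM and from 0.594 ± 0.103 to 15.2 ± 1.03 CPM. The 2 genes are on opposite strands, and reads cannot be told apart if strand was not counted. HOXC13 rose by 0.57, HOXC9 by 1.20, HOXC4 by 1.01 and HOXC5 by 0.83, HOXC6 was not called (0.22), and HOXC8 fell by 0.65. In HOXD 1 of 7 rose and 4 fell, with medians of -0.65, -0.063 and -0.35. HOXD9, HOXD10 and HOXD11 were low everywhere and fell, from 0.913, 0.959 and 2.22 CPM to 0.155, 0.263 and 0.744, and HOXD13 rose by 0.57. Unlike these, the rises in HOXB, 4 of 7, were all opposite between the control sets, and 0 lay outside all 8 control libraries. The HOXB medians were 0.34, -0.37 and -0.029. HOXB2, HOXB4 and HOXB9 differed by 0.61, 0.40 and 0.55 from their control and by 0.17, 0.017 and -0.12 from the second set. In HOXA 0 of 11 rose and 3 fell, with medians of -0.26, 0.18 and -0.077, and HOXA7 was lowest at -0.65.

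Among 14 pluripotency and germline genes 5 rose and 5 fell, with medians of 0.18, -0.0013 and 0.29. POU5F1, a core factor of stem cells, rose from 26.96 ± 4.85 to 39.7 ± 3.52 CPM and UTF1, a chromatin factor of the same cells, by 1.34, both above all 8. KLF4, another such factor, fell by 1.31. CTCFL, a germline relative of CTCF, rose by 2.76 against its control but stood at 18.9 ± 2.60 CPM against 16.9 ± 3.18 in the second control set. LIN28A, an RNA-binding repressor of let-7, was lower than in its control (-0.87) and higher than in the second control set (1.47). Imprinted genes gave 3 rises and 9 falls among 20, with medians of -0.082, -0.0016 and -0.16. PEG10, a gene of retrotransposon origin, held 2189.8, 2322, 2188 and 2223 CPM in the knockout, 3394, 3329, 3775 and 3155 in its control and 2952, 3081, 3342 and 3320.2 in the second control set. It fell by 0.61 ± 0.046, and its neighbour SGCE fell by 0.37. Interferon-stimulated and innate immune genes gave 8 rises and 5 falls among 30, with medians of -0.011, 0.017 and 0.062. IFITM1, which blocks entry of viruses, rose from 4.05 ± 0.927 to 24.9 ± 2.25 CPM with 6.01 ± 0.346 in the second control set, and BST2, tetherin, rose by 0.38.

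The largest changes were losses. In 40 called genes every knockout library lay at or under 3 counts, and for 16 of them the fall was at least 10-fold when computed against that floor per library. None of the 16 was at the floor in the second control set, and all 16 lay below all 8 control libraries. LAYN, a hyaluronan receptor, had 0 counts in all 4 knockout libraries, 16.4, 17.8, 14.8 and 18.7 CPM in its control and 21.2, 22.4, 20.4 and 21.7 in the second control set, so it was at least 91.05-fold lower. H2AFJ, a histone H2A variant, was at least 62.4-fold lower, FUT9 at least 59.6-fold, TRPC4, a cation channel, at least 56.6-fold, and GFRA1, a receptor of the growth factor GDNF, at least 53.97-fold. GFRA1 also differed between the control sets, at 7.74 to 14.1 and 3.10 to 4.24 CPM. FASTKD2, a protein of the mitochondrial RNA granule, kept a few counts, at 0.249, 0.0621, 0.184 and 0.187 CPM in the knockout, 55.9, 60.8, 62.4 and 61.5 in its control and 52.6, 53.2, 55.9 and 54.2 in the second control set. Other genes fell without reaching the floor, among them the gap junction protein GJA1, from 13.3 ± 0.697 to 0.836 ± 0.163 CPM, and HCLS1, a substrate of kinases in blood cells, from 19.1 ± 0.593 to 1.75 ± 0.395 CPM. PI15, a secreted protein, fell to 0.527 ± 0.109 CPM from 16.9 ± 3.59 in its control, but stood at 1.43 ± 0.441 in the second control set.

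Gains from the floor were fewer. In 10 called genes every control library lay at or under 3 counts, and 3 of these rose at least 10-fold. OLFM1, a secreted protein of neurons, held 6.34, 5.90, 5.15 and 5.60 CPM in the knockout and was at least 31.5-fold higher. COL5A1, the partner chain of COL5A2 in type V collagen, held 3.23, 2.98, 3.56 and 3.42 CPM in the knockout and 0 counts in all 8 control libraries, at least 18.1-fold higher, so that the 2 chains moved in opposite directions. CAMK2B, a calcium-dependent kinase of neurons, was at least 10.5-fold higher. At a mean of 5 CPM or more, rises of the same order were those of CGREF1, from 0.791 ± 0.191 to 23.6 ± 0.0978 CPM, TMEM132E, by 3.30, CELF6, a splicing factor, by 3.39, and SPARCL1, a matrix protein related to SPARC, by 3.26. OLFM1, COL5A1 and CAMK2B were chosen after their values were seen.

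**Figure D5:**
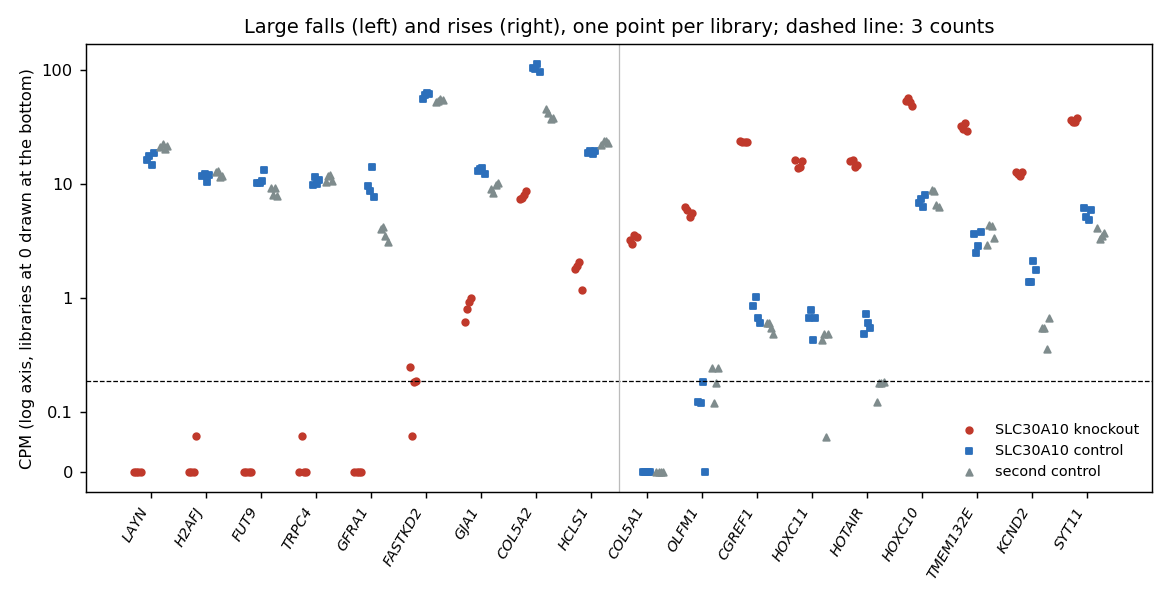
CPM on a log axis of 9 genes that fell (left) and 9 that rose (right), with 1 point per library and libraries at 0 drawn at the bottom. LAYN, FUT9 and GFRA1 are at 0 in all 4 knockout libraries and COL5A1 is at 0 in all 8 control libraries; the dashed line marks 3 counts.

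To show the DNA at the start of genes that were lost, the promoters of 4 of them are given, the 250 bases before each gene start (RefSeq, GRCh38.p14), with CG dinucleotides, the sites of DNA methylation, in capitals. Methylation was not measured. FASTKD2 (chr2:206765356-206765605, plus strand) held 12 CG, FUT9 (chr6:96015724-96015973, plus strand) 11, TRPC4 (chr13:37869773-37870022, minus strand) 17 and GFRA1 (chr10:116274706-116274955, minus strand) 5. Of the 16 genes at least 10-fold lower, 7 had a promoter in the reference, and 3 of these held at least 15 CG. Among all 10355 tested genes with a promoter, 72.8% held at least 15, with a median of 21 against 11 for the 7.
FASTKD2: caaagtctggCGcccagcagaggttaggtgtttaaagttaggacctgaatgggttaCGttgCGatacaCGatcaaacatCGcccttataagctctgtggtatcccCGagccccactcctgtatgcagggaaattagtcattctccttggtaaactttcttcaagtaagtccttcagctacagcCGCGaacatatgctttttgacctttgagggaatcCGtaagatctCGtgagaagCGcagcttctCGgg
FUT9: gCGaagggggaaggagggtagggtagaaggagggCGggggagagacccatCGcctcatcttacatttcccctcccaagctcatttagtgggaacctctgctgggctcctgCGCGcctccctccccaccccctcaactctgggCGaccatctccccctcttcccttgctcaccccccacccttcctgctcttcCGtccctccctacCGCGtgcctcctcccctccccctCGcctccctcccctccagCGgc
TRPC4: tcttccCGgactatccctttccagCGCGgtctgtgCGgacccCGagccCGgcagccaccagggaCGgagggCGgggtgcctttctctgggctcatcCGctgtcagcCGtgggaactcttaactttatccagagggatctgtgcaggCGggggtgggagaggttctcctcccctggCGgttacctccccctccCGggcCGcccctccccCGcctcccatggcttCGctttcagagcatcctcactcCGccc
GFRA1: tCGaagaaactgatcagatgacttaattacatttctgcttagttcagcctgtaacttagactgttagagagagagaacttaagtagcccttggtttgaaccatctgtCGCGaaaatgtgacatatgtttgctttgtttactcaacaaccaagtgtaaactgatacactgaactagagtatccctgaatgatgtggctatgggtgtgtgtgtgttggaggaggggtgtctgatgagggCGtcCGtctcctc

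The 3 regions named above moved as blocks. Their borders were drawn from these same data, so the counts in them are a description. Of 76 tested genes from the tip of chromosome 8p to RHOBTB2, 66 were higher and 3 lower, with a median log2 difference of 0.97 against the control and 1.01 against the second control set, where the control sets themselves differed by -0.018. From MAF to the end of chromosome 16q, 2 of 87 genes were higher and 71 lower, with medians of -0.56 and -0.54. On X, 346 of 498 genes were higher and 28 lower, with medians of 0.36 and 0.33. Among 13515 genes placed elsewhere 20.2% were higher and 21.1% lower, and 2466 called genes lay outside all 8 control libraries. A further 1393 tested genes had no position in the reference, with 11.7% higher, 13.9% lower and 142 outside all 8. The number of copies of these regions was not measured, and its part in the results was not tested. Among the genes described above the 8p region holds FDFT1, SLC7A2, CTSB, ASAH1, ATP6V1B2 and SLC39A14. The 16q region holds MVD, SLC7A5, GINS2 and CDT1, which fell, and ATP2C2, which was not called.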

How the data were processed

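Poly-A RNA of 16 HAP1 libraries was sequenced as paired reads on a DNA nanoball platform, per the labels. The authors deposited raw counts for 33121 gene symbols and a table of normalized signal whose columns equal the counts times a constant per library, within 5.21e-06. The submitters' processing notes name HISAT2, featureCounts, DESeq2 and the build hg38; versions, annotation and use of strand are not given in the sources used here. In the counts, 28 entries are symbols turned into dates, fitted but not named.

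Counts were fitted with edgeR 4.0.16 (R 4.3.3), scaled by TMM and filtered by edgeR's expression filter (minimum count 10, minimum total 15), which left 15569 genes. All 16 libraries entered a fit with a mean per group, so the groups share an estimate of the spread (common biological coefficient of variation 0.0497), and quasi-likelihood F tests were adjusted by the Benjamini-Hochberg method. The contrasts were knockout against its control, and SLC30A10 control and knockout against the second control set. Replicate pairs differed by more than sampling noise (chi-square 1.64 to 6.77 per degree of freedom), so none was taken as a repeat. Floors of 3 counts cover counting error only, since no molecular identifiers are stated. Alternatives were other scalings (median of ratios, the deposited factors, library totals), DESeq2 1.42.0, other filters and thresholds, a fit of the compared libraries, a replicate block, the second or both control sets, and each library left out. The procedure was also tested on simulated data.

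Members, lists and regions were chosen with earlier results of these data known. Of 56 lists, 54 with enough tested members were summarised; the 2 others, of genes of the mitochondrial genome and of cancer-testis genes, had 2 and 1 tested members. Genes were named by a rule: SLC30A10, the 10 largest rises and falls that were called with a mean of at least 5 CPM and no overlap, all members of lists of 12 or fewer, up to 4 called members per direction with the smallest adjusted p in longer lists, and the 5 largest changes among genes called in both contrasts, in each direction relation. Genes outside it are marked. RefSeq (GRCh38.p14) placed 91.1% of the tested genes and gave a promoter for 66.5%; motifs were searched in 250 bases. The gene deleted in the second knockout and a few other genes are not reported here.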

Additional observations from a re-analysis of the deposited data

Results flagged for a closer look

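In each group of 4, the gap between the highest or lowest library and its nearest neighbour was set against the whole range of the group. The gap passed Dixon's 95% critical value for 4 samples in 45 of 822 groups examined over the genes and lists named above. Chance gives about 1 in 20, or 41.1 here. SLC30A10 control library 3 stood apart in 11 values, in CPM FKBP4 at 661 (nearest 605), LAMP1 at 194 (nearest 171), LFNG at 10.0 (nearest 8.01), MRPL12 at 93.7 (nearest 84.9), MT1F at 10.5 (nearest 8.80), PSAT1 at 315 (nearest 289), RBBP7 at 229.8 (nearest 219) and TMEM165 at 73.1 (nearest 71.0). They include the summed level in CPM of cadherins and claudins at 686 (nearest 629), mitochondrial ribosomal proteins at 5701 (nearest 5281) and NRF2 targets and antioxidant defence at 5785 (nearest 5439). SLC30A10 knockout library 2 stood apart in 6 values, in CPM ACSL4 at 75.3 (nearest 71.1), ANXA5 at 178 (nearest 167), BST2 at 159 (nearest 173), CENPA at 46.9 (nearest 47.9), POU5F1 at 34.4 (nearest 40.6) and TRPC4 at 0.0621 (nearest 0). SLC30A10 control library 4 stood apart in 5 values, in CPM ATP2C2 at 0.488 (nearest 0.546), CDT1 at 175 (nearest 159), FUT9 at 13.2 (nearest 10.6), HOXD11 at 2.62 (nearest 2.13) and SLC30A5 at 65.6 (nearest 71.7). SLC30A10 knockout library 3 stood apart in 4 values, in CPM PCDH20 at 5.58 (nearest 5.22), RPS23 at 1049.6 (nearest 1074) and SFRP1 at 42.4 (nearest 38.0). They include the summed level in CPM of clustered histone genes at 49.5 (nearest 51.3). Library 1 of the second control set stood apart in 3 values, in CPM FADS3 at 23.2 (nearest 23.7) and HOTAIR at 0.122 (nearest 0.181). They include the summed level in CPM of Golgi glycosyltransferases at 1874 (nearest 1944). Library 3 of the second control set stood apart in 4 values, in CPM HOXC11 at 0.0603 (nearest 0.428), HOXC13 at 10.4 (nearest 12.0), HOXD9 at 0.964 (nearest 1.34) and MT1E at 91.5 (nearest 82.9). SLC30A10 knockout library 1 stood apart in 3 values, in CPM B4GALT6 at 42.4 (nearest 45.4) and CGREF1 at 23.7 (nearest 23.6). They include the summed level in CPM of iron genes at 3361 (nearest 3432). Library 2 of the second control set stood apart in 3 values, in CPM INHBB at 11.9 (nearest 11.7), MT1F at 10.0 (nearest 8.50) and NDUFA5 at 83.2 (nearest 90.2). Library 4 of the second control set stood apart in 3 values, in CPM ATP2C2 at 0.608 (nearest 0.844), EIF2AK3 at 15.9 (nearest 13.6) and SFRP1 at 23.9 (nearest 23.4). SLC30A10 knockout library 4 stood apart in 2 values, in CPM H2AFJ at 0.0623 (nearest 0) and SEC24D at 25.6 (nearest 22.4). SLC30A10 control library 1 stood apart in 1 value, in CPM SEC24D at 34.7 (nearest 36.6).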

How the results depend on the processing

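The same-numbered libraries of knockout and control did not deviate together (correlations of -0.089 to 0.0066, mean -0.036), so the replicate number does not pair them. Between the control sets these correlations were -0.12 to 0.13, mean 0.028. There the same-numbered library was the best match for 3 of 4 libraries. With the replicate number as a block, 6497 genes were called, 6266 between the control sets, 3226 in both and 3001 outside all 8 control libraries, and for SLC30A10 the exact p was 0.75. The block changed the call of 0 of 219 genes named and moved 1 list by over 1.5 times, hypoxia-response genes, from 5 calls to 8. The scalings gave 6409 to 6432 calls, with 3063 higher and 3369 lower by library totals, DESeq2 6066 and a fit of the 8 libraries alone 6592. A change of at least 2-fold left 702 genes, 218 between the control sets, 94 in both and 543 outside all 8 control libraries. At an adjusted p under 0.01, 1750 genes were called in both. Leaving out 1 library at a time gave 5657 to 6483 calls in the knockout, 5053 to 6125 between the control sets, 2478 to 3107 in both and 2938 to 3386 outside all 8. For SLC30A10 the log2 ratio ranged from -0.52 to 0.068 and was 0.20 against both control sets pooled.

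Against the second control set in place of the SLC30A10 control, 16 of 219 genes changed sign and 20 lost their call, 7 of them among those that changed sign. The log2 values were 0.19 for ATP13A1, -0.42 for ATP2C2, 0.040 for FASTKD5, -0.74 for HES1, -0.12 for HOXB9, 1.47 for LIN28A, -0.014 for MT1M, 0.020 for MT2A, 0.086 for MTF1, 0.024 for PFAS, -0.0089 for SLC11A2, 0.15 for SLC30A1, -0.23 for SLC30A4, 0.12 for SLC30A6, 0.093 for SLC39A8 and 0.0011 for TMEM165. The number of called members moved by over 1.5 times in 15 of 54 lists, down in ZnT exporters (2), metallothioneins (0), serine and one-carbon genes (11), clustered histones (4), ribosomal proteins (26) and HOXB (1), and up in ZIP importers (5), the mitochondrial RNA granule (16), mitochondrial ribosomal proteins (47), complexes II to V (15), hypoxia response (17), ATF4 targets (18), proteasome (29), autophagy (22) and TGF-beta and BMP (25). It moved in 12 lists with both sets pooled. With both sets pooled, ATP13A1 was at 0.051, ATP2C2 at -0.14, HES1 at -0.081, LIN28A at 0.30, SLC30A6 at 0.030 and SLC39A8 at 0.037. Library totals alone turned ATP2C1 to -0.0061 and SLC30A7 to -0.00011. With 1 library left out, values ranged from -0.021 to 0.034 for ATP2C1, -0.049 to 0.31 for ATP2C2, -0.035 to 0.13 for MT1M, -0.012 to 0.048 for SLC30A7 and -0.057 to 0.025 for SLC39A8, none of them called. Apart from these controls, the causes were not tested. Depth limits genes near 3 counts, SLC30A10 among them.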
